A study of Mus musculus with 36 samples.

Results

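The 9 genes described here are targets of PPAR-alpha that lie outside the set of enzymes of fatty acid oxidation: Vnn1, Pdk4, Fabp1, Creb3l3, Cd36, Slc22a5, Fgf21, Angptl4 and Ucp2. They were followed in the livers of male adult C57BL/6J mice (C57BL/6JOlaHsd in the study's methods) that all received a mild-high-fat diet with 30% of energy from fat. Members were the probes whose gene name in the array files, or whose current symbol by accession, was one of the 9, out of 19750 gene symbols on the array. The array carries 14 such probes. The table of processed values deposited by the authors holds 12 of them, and all 9 genes have at least 1. The baseline group (t=0, 12 mice) was killed directly after an adaptation to the diet, which lasted 3 weeks per the sample labels and is given a different length in the study's methods. The control group (HF, 12 mice) stayed on the unsupplemented diet for a further 12 weeks, and the quercetin group (HF-Q, 12 mice) received the same diet with 0.33% (w/w) of the flavonoid quercetin for those 12 weeks. All mice were fasted for at least 2 h before they were killed. Labels and methods name no pooling of mice, so each of the 36 arrays is the liver of 1 mouse, labelled with Cy5 and hybridised against a Cy3-labelled pool of all samples.

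PPAR-alpha is a nuclear receptor that is activated by fatty acids and by fibrate drugs. It pairs with RXR-alpha and binds direct repeats of a hexamer half-site near its target genes. In the liver it is best known for switching on the enzymes that burn fatty acids during fasting, but it also controls genes that carry lipids into cells, spare glucose or send signals to other organs. Cd36 takes up long-chain fatty acids at the cell surface, Slc22a5 (Octn2) imports carnitine, and Fabp1 binds fatty acids in the cytosol of the hepatocyte. Pdk4 phosphorylates and thereby inactivates pyruvate dehydrogenase, and Ucp2 is a carrier of the inner mitochondrial membrane. Vnn1 is a membrane-anchored pantetheinase that releases cysteamine and pantothenic acid. Fgf21 and Angptl4 are secreted: the former is an endocrine hormone of fasting and of protein or carbohydrate imbalance, and the latter inhibits lipoprotein lipase. Creb3l3 (CREBH) is a membrane-bound transcription factor of the liver that acts on lipid genes, Fgf21 among them.

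Promoter sequences of RefSeq (mouse build GRCm38.p6) were at hand for 7 of the 9 genes, all but Vnn1 and Angptl4. In the 250 bases before the start site, both strands were searched for the direct repeat AGGTCANAGGTCA that PPAR-alpha and RXR-alpha favour, for its relaxed form AGGNCANAGGNCA, for the half-site AGGTCA and for TATAAA. The strict repeat was in none of the 8 promoters of these 7 genes and in 0.0335% of the 32851 promoters in the table. The relaxed form occurred in 0.338% of all promoters and, among the 7 genes, in that of Fabp1, on the opposite strand from -67 to -55. The half-site, which the repeats contain, was in 14% of all promoters and in those of Fabp1, Cd36 and the downstream of the 2 of Creb3l3. TATAAA was in 12.4% of all promoters and in those of Fabp1 and Fgf21. A match describes letters only, and many receptor sites lie outside such a window. The following 4 sequences are shown because Fabp1 holds the single relaxed repeat, Creb3l3 a lone half-site, and Fgf21 and Pdk4, which rose between baseline and control, neither of them. Capitals mark the matches (the repeat, half-sites and TATAAA), each sequence reads 5′ to 3′ on the gene's strand, and it ends at the base before the start site.
Fabp1, chr6:71199629-71199878, plus strand: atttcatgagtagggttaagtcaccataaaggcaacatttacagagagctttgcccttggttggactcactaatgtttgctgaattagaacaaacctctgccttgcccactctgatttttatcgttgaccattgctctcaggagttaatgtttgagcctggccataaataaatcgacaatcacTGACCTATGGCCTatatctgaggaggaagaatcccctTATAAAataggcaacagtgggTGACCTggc
Creb3l3, chr10:81092592-81092841, minus strand: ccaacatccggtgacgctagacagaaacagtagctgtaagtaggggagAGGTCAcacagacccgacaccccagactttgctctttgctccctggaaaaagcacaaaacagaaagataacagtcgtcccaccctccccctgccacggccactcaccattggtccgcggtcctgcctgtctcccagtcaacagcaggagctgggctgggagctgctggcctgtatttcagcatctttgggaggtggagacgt
Fgf21, chr7:45615491-45615740, minus strand: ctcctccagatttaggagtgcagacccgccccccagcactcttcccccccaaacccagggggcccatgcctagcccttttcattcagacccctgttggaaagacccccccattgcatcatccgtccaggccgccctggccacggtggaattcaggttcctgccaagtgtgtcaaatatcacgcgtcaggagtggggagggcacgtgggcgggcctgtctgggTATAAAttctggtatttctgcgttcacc
Pdk4, chr6:5496279-5496528, minus strand: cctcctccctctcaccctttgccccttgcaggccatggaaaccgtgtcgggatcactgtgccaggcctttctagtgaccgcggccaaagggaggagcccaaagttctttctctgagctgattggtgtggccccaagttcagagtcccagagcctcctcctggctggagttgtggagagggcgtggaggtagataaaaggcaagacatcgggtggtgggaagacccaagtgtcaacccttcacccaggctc

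Values are log2 of Cy5 over Cy3 after the authors' normalization, to which their table adds a constant for each spot and for each array. A difference of 1 is thus a 2-fold difference in this ratio between mice, and the levels of different probes are not set against each other. Background was not subtracted from the intensities, so for dim probes a difference in RNA can be understated. Each pair of groups was compared with limma over all 21781 probes of the table, and a probe is called when its Benjamini-Hochberg adjusted p is under 0.05. A gene is represented by its brightest probe. The 3 comparisons share groups, so they are not independent of each other. In tissue RNA, a change in the number of cells of a type and a change of RNA per cell cannot be told apart.

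The array of quercetin replicate 2 had 96.7% of its spots well above background in Cy5 and so stood apart from the other 35 arrays, at 56.4% to 67.4%. In control replicate 5 the summed log2 level of 5 marker genes of the exocrine pancreas was 21.67, against 11.55 to 12.11 on the other 35 arrays. The summed level of the hepatocyte markers ran from 19.58 to 20.25 at baseline, from 19.78 to 20.28 in control and from 19.7 to 20.4 in quercetin livers, although single markers moved: of the 6 tested, 1 was called lower in control than at baseline (Cps1, -0.32, adjusted p = 0.0184, limma) and 2 lower in quercetin than at baseline, Cps1 (-0.45) among them. Adipoq, Lep, Plin1 and Retn, which mark adipocytes, had no probe in the table. Of the 8 macrophage markers, 8 had a higher mean in the control than in the baseline group (median log2 difference 0.31, none called), and their summed level ran from 15.16 to 16.95 at baseline, from 15.9 to 17 in control and from 15.79 to 16.65 in quercetin livers. Other markers called between control and baseline were Hba-a1 of red cells (0.93, adjusted p = 0.000308), Ighm of B lymphocytes (0.63, adjusted p = 6e-04), and Pecam1 (-0.34, adjusted p = 0.0036) and Cdh5 (0.20, adjusted p = 0.0101) of the endothelium. Between quercetin and baseline they were Hba-a1 (1.21), Slc4a1 (0.26) and Alas2 (-0.26), all of red cells, and between quercetin and control Pecam1 (0.38) and Ighm (-0.56). The part of these cells in the results was not tested.

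Quercetin-fed mice differed from control mice in 1 of the 9 genes by its brightest probe: Vnn1 was higher. Among the brightest probes of all 13042 genes 2.22% were called in this comparison, and among all probes 2.36%, of which 1.49% of the table higher, so 1 of 9 genes is a count too small to set these genes apart. Their median log2 fold change was 0.17 against 0 for all genes, 7 of the 9 lay above 0, and Fgf21 and Pdk4 lay below. By any probe 2 genes were called, since the dimmer probe of Slc22a5 passed. An unadjusted p under 0.05 was met by 15.4% of all probes. By their brightest probes Vnn1, Fgf21, Slc22a5, Pdk4, Ucp2 and Creb3l3 met it (p = 0.000242 to 0.0498, limma), and Fabp1, Cd36 and Angptl4 did not.

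Vnn1 (probe A_51_P424532, NM_011704, mm8 chr10:23594134-23594193) ranged from 9.77 to 10.54 with a median of 10.08 in control livers. In quercetin livers it ranged from 10.03 to 12.22 with a median of 10.72. The groups overlapped, but 11 of 12 quercetin livers exceeded the median of the control livers, and 8 exceeded the highest of them. The log2 fold change was 0.69 (95% confidence interval 0.36 to 1.03, 1.62-fold, adjusted p = 0.0202, limma). Within slides, quercetin exceeded control on 8 of 9. The call remained whichever of the 24 mice was left out, with 0.57 the lowest fold change, obtained without quercetin replicate 4, the mouse at 12.22. It was lost with Arntl as a covariate (0.52, adjusted p = 0.286), the replicate block (0.69, 0.0548), and the scanner intensities after median centring (0.60, 0.245) or after loess and scaling (1.32, 0.446). Baseline livers lay between both groups, from 9.72 to 11.32 with a median of 10.46, and neither the drop from baseline to control (-0.32, adjusted p = 0.117, limma) nor the higher level under quercetin than at baseline (0.37, adjusted p = 0.221) was called. Vnn3, its paralog, had a log2 fold change of 0.04 between quercetin and control (adjusted p = 0.771, limma).

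Slc22a5, the carnitine importer, was measured by a pair of probes to the same transcript (NM_011396, mm8 chr11:53708471-53708530 and chr11:53708979-53709038). By the brighter probe (A_51_P165060), control livers ranged from 8.59 to 9.91 with a median of 8.72 and quercetin livers from 8.84 to 10.08 with a median of 9.22. All 12 quercetin livers exceeded the control median, and quercetin exceeded control on 9 of 9 slides. The log2 fold change of 0.42 (95% confidence interval 0.15 to 0.70) missed the threshold (adjusted p = 0.0997, limma), and 2 of 17 alternatives called it. These were all 36 arrays in one fit (adjusted p = 0.0461) and array weights (adjusted p = 0.00685). It was lower with Cy5 alone (0.21, adjusted p = 0.697), median centring (0.24, 0.556) and Arntl as a covariate (0.32, 0.441). The dimmer probe (A_52_P656659) gave 0.31 and passed (adjusted p = 0.0399, limma). The call of the dimmer probe is near the threshold, being kept in 10 of the 24 fits that each left out 1 mouse, at 0.28 to 0.35 and adjusted p up to 0.072. Control replicate 1 had the level of 9.91 on the brighter probe, and the next control mouse 8.95. Without that mouse the brighter probe gave 0.52 (adjusted p = 0.00673) and the dimmer 0.35 (adjusted p = 0.0087). Baseline livers ranged from 8.77 to 9.42, and control lay below them by 0.27 on the brighter probe (adjusted p = 0.0761), which became -0.37 (adjusted p = 0.000294) without control replicate 1. The dimmer probe fell by 0.19 from baseline to control (adjusted p = 0.0384, limma), again a call kept in 10 of 24 such fits. Bbox1, the enzyme that completes carnitine synthesis, had -0.21 in that comparison (adjusted p = 0.0733) and 0.14 between quercetin and control (adjusted p = 0.329).

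**Figure D1:**
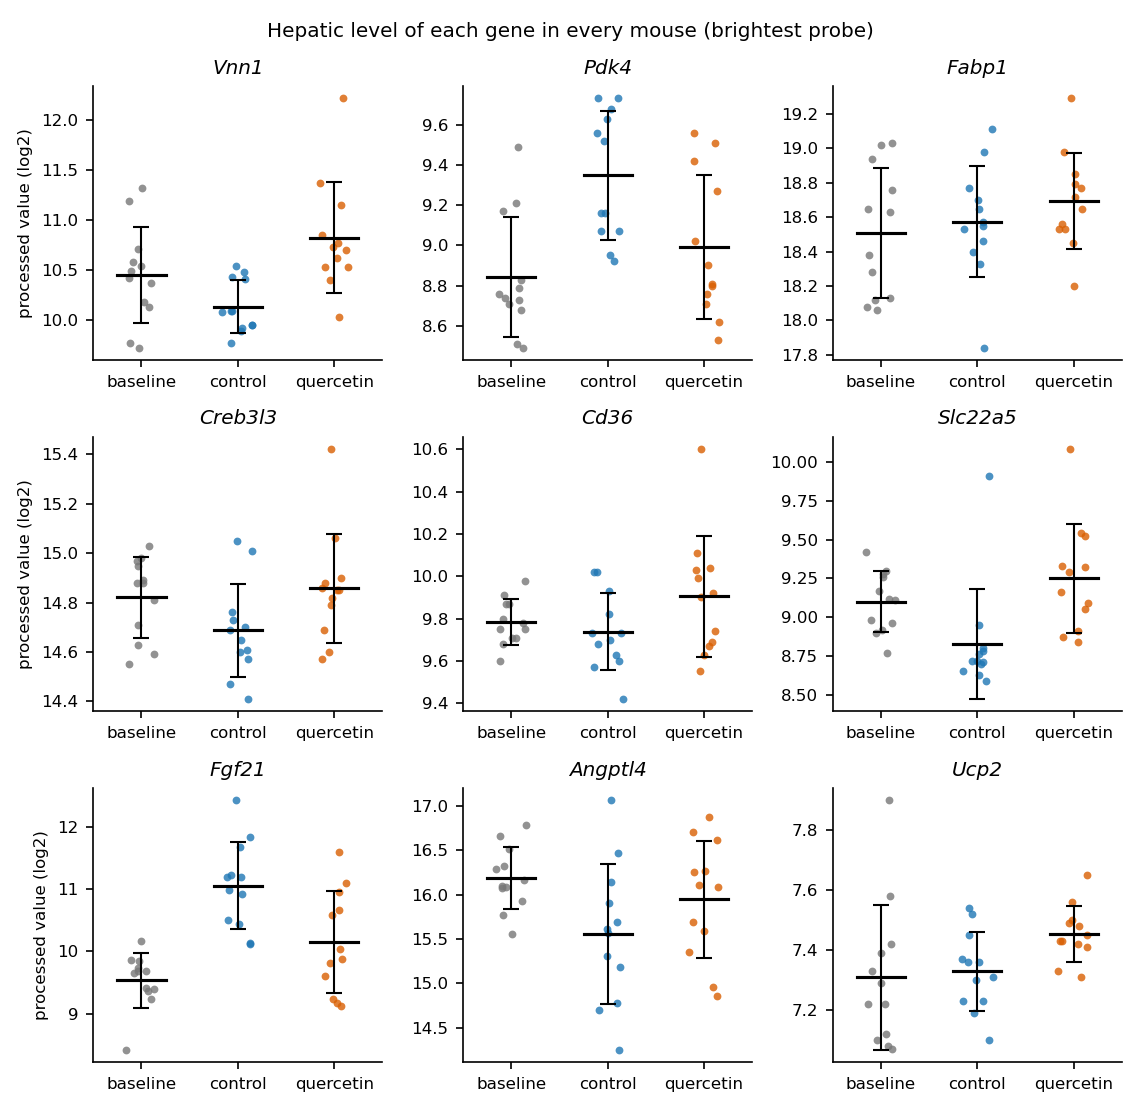
Processed log2 value (vertical axis) of the brightest probe of each of the 9 genes in every mouse of the baseline, control and quercetin groups (12 points each); the bar is the mean and the whiskers 1 SD. Vertical axes differ between panels and do not start at 0; Vnn1 and Slc22a5 are lowest in the control group, Fgf21 and Pdk4 highest in it.

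By the brightest probes, Fgf21 showed the largest difference, up or down, of the 9 genes in each of the 3 comparisons. Between quercetin and control this rank did not hold for its dimmer probe (-0.65, against 0.69 for Vnn1). Nor did it hold after loess and scaling (-0.58, against 1.32 for Vnn1) or with Arntl as a covariate (-0.28, against 0.52 for Vnn1). Between quercetin and baseline it did not hold in every alternative either: Fgf21 reached at most 0.75, Fabp1 1.24 and Vnn1 1.03. Baseline livers ranged from 8.42 to 10.17 with a median of 9.67 on the brighter probe (A_52_P235347, NM_020013, mm8 chr7:45481977-45482036). Control livers ranged from 10.12 to 12.42 with a median of 11.09, and 10 of 12 exceeded the highest baseline mouse. The rise was 1.52 on the log2 scale (95% confidence interval 1.07 to 1.96, 2.87-fold, adjusted p = 2.23e-05, limma), seen on 9 of 9 slides, and the second probe (A_51_P315925) rose by 1.14 (adjusted p = 7.01e-05). In this comparison 21.3% of all probes were called, 10.9% higher and 10.4% lower in control, and 21% of all genes, and 3 of the 9 genes by their brightest probe: Fgf21 and Pdk4 up, Angptl4 down. Quercetin livers were spread between the other groups, from 9.13 to 11.59 with a median of 9.96. They overlapped both: 7 of 12 lay below the lowest control mouse, and 5 above the highest baseline mouse. Against control the log2 fold change was -0.91 (95% confidence interval -1.49 to -0.32), and 10 of 12 quercetin livers were under the control median, but it missed the threshold (adjusted p = 0.0925, limma), which it passed with all 36 arrays in one fit (-0.91, adjusted p = 0.044). The second probe gave -0.65 (adjusted p = 0.16). Without quercetin replicate 8, the mouse at 11.59, the difference was -1.04 and passed (adjusted p = 0.0397). Against baseline it was 0.61 (adjusted p = 0.102). Fgf21 is also made in the exocrine pancreas, whose markers were high in control replicate 5. Its Fgf21 value of 10.98 lay near the control median of 11.09, and without it the differences were 1.53 from baseline (adjusted p = 3.63e-05) and -0.91 between quercetin and control (adjusted p = 0.0954).

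Of the tested receptors for fibroblast growth factors, Fgfr4 rose by 0.20 from baseline to control (adjusted p = 0.0187, limma). Fgfr1, Fgfr2 and Fgfr3 had -0.12, -0.04 and -0.03 (adjusted p = 0.144, 0.822 and 0.768), and the co-receptor Klb had -0.08 (adjusted p = 0.573). Between quercetin and control, Fgfr4 had -0.09 and Klb 0.01. Fgfr1, Fgfr2 and Fgfr3 had 0.16, -0.02 and -0.04 there, and none of these genes was called. All of them were named after their values had been seen, as were the other genes of these lists that were called against baseline.

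Pdk4, the kinase that blocks pyruvate oxidation, had the same order of groups as Fgf21. Baseline livers (probe A_51_P350453, NM_013743, mm8 chr6:5433441-5433500) ranged from 8.49 to 9.49 with a median of 8.75. Control livers ranged from 8.92 to 9.73 with a median of 9.34. All 12 control mice lay above the baseline median and 6 above its maximum, and control exceeded baseline on 9 of 9 slides. Pdk4 rose by 0.51 (95% confidence interval 0.26 to 0.75, 1.42-fold, adjusted p = 0.00315, limma). Quercetin livers ranged from 8.53 to 9.56 with a median of 8.86, and 7 of 12 were below the lowest control mouse. The difference from control was -0.35 (95% confidence interval -0.62 to -0.09), which was not called (adjusted p = 0.165), nor was that from baseline (0.15, adjusted p = 0.477). Pdk2, the other main liver isoform, moved the other way between baseline and control, by -0.30 (adjusted p = 0.00217), and the phosphatase Pdp1, which reverses the kinases, rose by 0.20 (adjusted p = 0.0372).

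**Figure D2:**
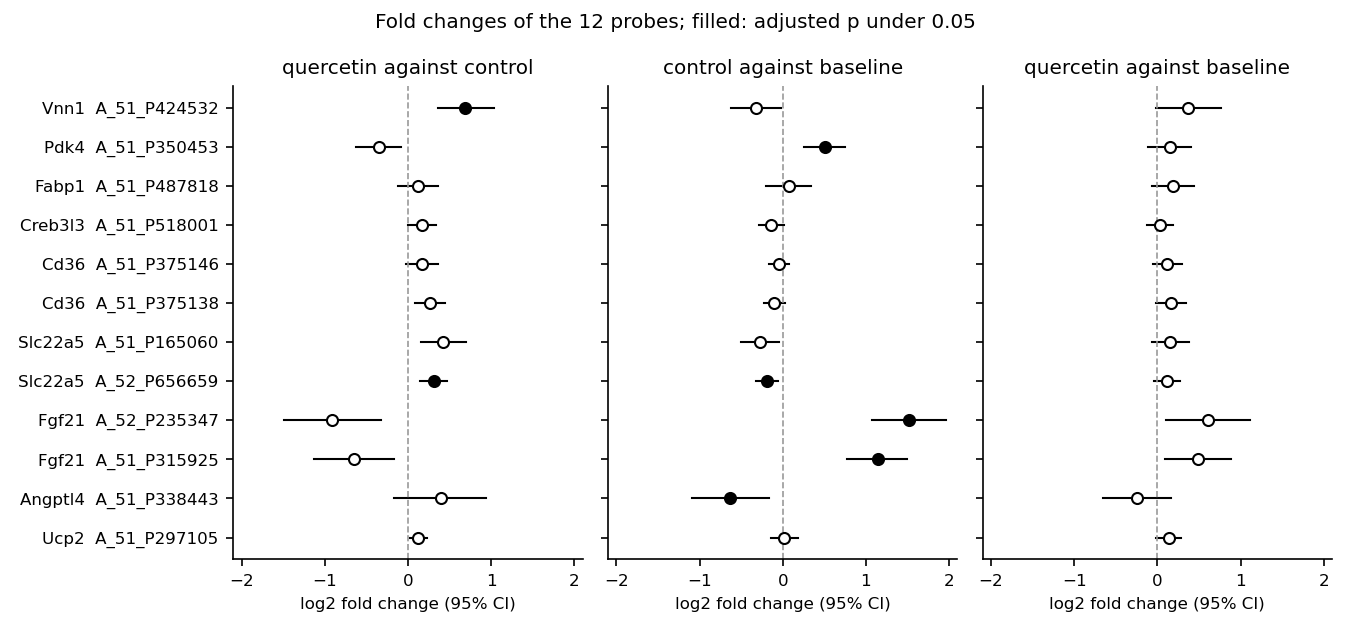
Log2 fold change (horizontal axis) with its 95% confidence interval for the 12 probes of the 9 genes in the 3 comparisons; filled points have a limma adjusted p under 0.05. The intervals of both Fgf21 probes lie on the right of 0 from baseline to control and on the left of 0 from control to quercetin, while those of both Slc22a5 probes do the opposite.

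Angptl4, the secreted inhibitor of lipoprotein lipase, was the third gene called between baseline and control and the least certain. Its probe (A_51_P338443, NM_020581, mm8 chr17:33381815-33381874) ranged from 15.56 to 16.78 at baseline, with a median of 16.13. Control livers ranged more widely, from 14.25 to 17.06 with a median of 15.59. Angptl4 fell by 0.63 on the log2 scale (95% confidence interval -1.09 to -0.16, adjusted p = 0.0477, limma), with 9 of 12 control mice below the baseline median. The call was kept without baseline replicate 1 or 10 or control replicate 1, 3, 11 or 12, and lost without any 1 of the other 18 mice, at adjusted p up to 0.084. Control replicate 5, the mouse with the pancreas markers, had the lowest value of 14.25; without it the difference was -0.51 (adjusted p = 0.0744). Quercetin livers ranged from 14.86 to 16.87, and the difference from control was 0.39 (95% confidence interval -0.17 to 0.94, adjusted p = 0.506). Of its relatives and targets, Angptl8 rose from baseline to control by 1.1 (adjusted p = 0.000364), lipoprotein lipase itself, Lpl, by 0.48 (adjusted p = 0.00416) and Gpihbp1, the endothelial anchor of the lipase, by 0.21 (adjusted p = 0.0165).

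The lipid carriers Fabp1 and Cd36 were called in no comparison. Fabp1 (A_51_P487818, NM_017399, mm8 chr6:71134491-71134550) gave a Cy5 signal about 7090 to 8590 times the local background (group medians) and was saturated on 1 quercetin array, so that a difference at the top of its range could be understated. It ranged from 18.06 to 19.03 at baseline, from 17.84 to 19.11 in control and from 18.2 to 19.29 in quercetin livers. These ranges overlap almost entirely, and quercetin differed from control by 0.12 on the log2 scale (95% confidence interval -0.12 to 0.36, adjusted p = 0.653, limma). Cd36 was measured by 2 probes (A_51_P375146, NM_007643, mm8 chr5:17294606-17294665, and A_51_P375138, L23108, whose 60 bases span 2433 bases of the genome, chr5:17295116-17297548). On the brighter probe, control livers ranged from 9.42 to 10.02 and quercetin livers from 9.55 to 10.6, the highest being quercetin replicate 5. The fold changes were 0.17 (adjusted p = 0.392) and 0.26 (adjusted p = 0.119), and on the second probe 7 of 12 quercetin-fed mice exceeded the highest control mouse. Without quercetin replicate 10 the second probe gave 0.30 and passed (adjusted p = 0.0475). From baseline to control the same probes gave -0.04 (adjusted p = 0.635) and -0.10 (adjusted p = 0.243). Macrophages express Cd36 too. Their markers had higher means in control than at baseline, as given above, while Cd36 did not, and the part of such cells in the Cd36 level was not tested.

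Creb3l3, the transcription factor, lay in a narrow range (A_51_P518001, NM_145365, mm8 chr10:80487703-80487762). It was between 14.55 and 15.03 at baseline, 14.41 and 15.05 in control and 14.57 and 15.42 in quercetin livers. Quercetin exceeded control by 0.17 (95% confidence interval 0.00 to 0.34, adjusted p = 0.324, limma), with 10 of 12 mice above the control median, and control lay 0.14 below baseline (log2 difference -0.14, adjusted p = 0.173). Over 16 alternatives the difference between control and baseline ran from -0.23 to -0.01, and 6 of them called it. Quercetin and baseline livers had medians of 14.85 and 14.88, and the difference of their means was 0.03 (adjusted p = 0.836).

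Ucp2, the mitochondrial carrier, is best known in macrophages and other non-parenchymal cells of the liver. The probe in the table (A_51_P297105, NM_011671, mm8 chr7:100373382-100373441) had a Cy5 signal about 3 times background. Its values ran from 7.07 to 7.9 at baseline, from 7.1 to 7.54 in control and from 7.31 to 7.65 in quercetin livers. Quercetin exceeded control on 9 of 9 slides and in 10 of 12 mice by the control median, but the difference was small, 0.12 (95% confidence interval 0.02 to 0.23), and was not called (adjusted p = 0.23, limma). All 12 quercetin-fed mice also exceeded the baseline median (0.14, adjusted p = 0.216); the highest baseline mouse, replicate 4 at 7.9, weighed on this, since without it the difference was 0.20 and passed (adjusted p = 0.0217). The other probes, A_52_P499675 and A_52_P90265, are outside the processed table. Their Cy5 signals were 1.22 to 1.86 times background, and their log2 fold changes from the scanner intensities lay between -0.02 and 0.01 in the 3 comparisons (standard errors 0.03 to 0.05). The part of macrophages in the Ucp2 level was not tested.

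Between quercetin and baseline livers none of the 9 genes was called by limma, in a comparison that called 12.9% of all genes and 11.9% of all probes. At an unadjusted p under 0.05, which 26.5% of all probes met, 1 of the 9 genes did so, Fgf21, and without quercetin replicate 4 it gave 0.70 and was called (adjusted p = 0.0486). The signs were positive for 8 of the 9 genes, with Angptl4 at -0.24 (adjusted p = 0.471), against a median of 0.02 over all genes.

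For 3 genes, several probes in the table could be set against each other. After each group's mean was taken off, the correlation of the 2 probes over the 36 mice was 0.98 for Fgf21, 0.83 for Cd36 and 0.68 for Slc22a5. These share the same RNA and array, so they describe measurement and not biology. Probes of a gene had the same sign in every comparison. In Slc22a5, quercetin replicate 2, the array that stood apart in brightness, lay off the line of the other mice: its dimmer probe was the second highest of the group at 7.82, and its brighter probe the third lowest at 8.91.

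**Figure D3:**
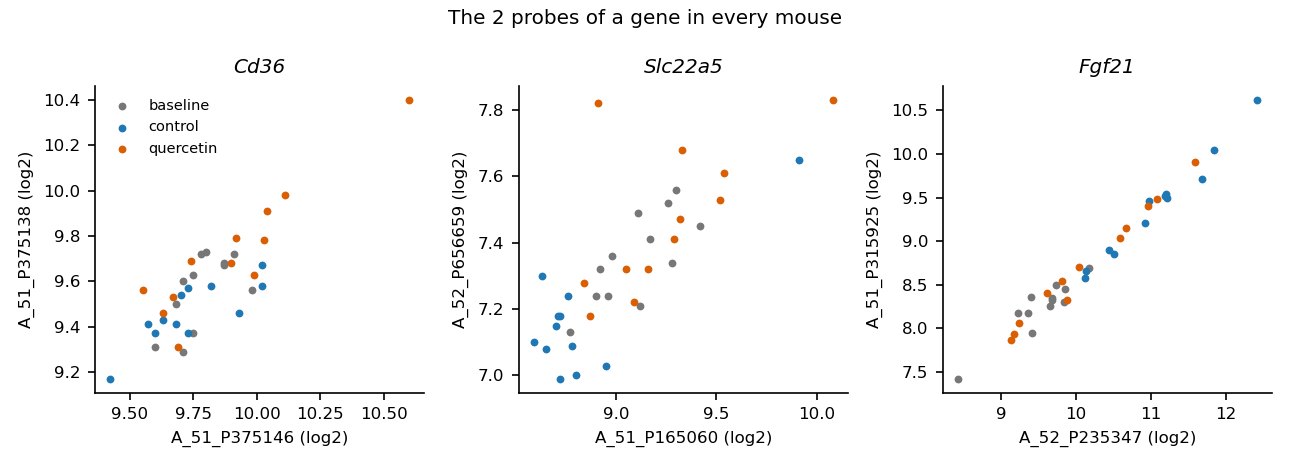
Processed log2 value of one probe (horizontal axis) against that of the other probe of the same gene (vertical axis) in each of the 36 mice, coloured by group. The Fgf21 probes follow a line (r = 0.98 within groups), and the Slc22a5 probes scatter more (r = 0.68).

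Mice of the same group differed from each other in these genes. Of the 36 pairs of genes, 8 were correlated between mice at an adjusted p under 0.05 (group means taken off, n = 36 mice, two-sided test with 100000 permutations within groups, adjusted over the 36 pairs), and all 8 were positive, with r of 0.44 or more. Over all pairs of the 13042 genes, 5.94% had an r of 0.44 or more, a share given as a description, since genes are not independent of each other. The closest pair was Creb3l3 and Slc22a5 (Pearson r = 0.75, permutation p = 1e-05, the smallest the permutations can give, adjusted p = 0.00036, Spearman rho = 0.71, adjusted p = 0.00036). Within single groups its r was 0.83 at baseline, 0.58 in control and 0.89 in quercetin-fed mice, and over all mice it was 0.74 without the 2 mice farthest from the median of Creb3l3 and 0.76 with slides removed. Vnn1 was correlated with Creb3l3 (r = 0.68, permutation p = 6e-05, adjusted p = 0.00054, rho = 0.62, adjusted p = 0.0018) and with Slc22a5 (r = 0.63, permutation p = 3e-05, adjusted p = 0.00036, rho = 0.56, adjusted p = 0.00585). Without the 2 mice farthest in Vnn1 these fell to 0.52 and 0.50, and with slides removed they were 0.68 and 0.59. Angptl4 was correlated with Slc22a5 (r = 0.65, permutation p = 2e-05, adjusted p = 0.00036, rho = 0.64, adjusted p = 0.00072). That r was 0.54 without the 2 mice farthest in Slc22a5 and 0.70 with slides removed. Vnn1 and Angptl4 did not pass over all mice (r = 0.29, permutation p = 0.0684, adjusted p = 0.154, rho = 0.29, adjusted p = 0.211). Within groups their r was -0.21 at baseline, 0.75 in control and 0.35 in quercetin-fed mice, a difference that was not tested.

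Fgf21 and Pdk4 were correlated with each other (r = 0.55, permutation p = 0.00118, adjusted p = 0.0085, rho = 0.52, adjusted p = 0.0174). It was 0.54 without the 2 mice farthest in Pdk4, 0.53 with slides removed, and 0.67 in both groups killed at 12 weeks against 0.12 at baseline, a difference that was not tested. No such relation was seen with Vnn1 (r = -0.05 for Fgf21 and -0.04 for Pdk4, permutation p = 0.81 and 0.819). Pairs of either gene with the others did not pass, but some came near. Pdk4 had r = 0.42 with Angptl4 and 0.38 with Cd36 (adjusted permutation p = 0.0664 and 0.0944), and Fgf21 had 0.36 with Fabp1 (0.0884). The remaining pairs that passed were weaker: Creb3l3 with Angptl4 (r = 0.48, adjusted permutation p = 0.0276, rho adjusted p = 0.0174), Fabp1 with Slc22a5 (r = 0.44, 0.0383 and 0.0335) and Fabp1 with Angptl4 (r = 0.44, 0.0276 and 0.0918). The first 2 of these had r of 0.48 without the 2 mice farthest in Creb3l3 and 0.44 without the 2 farthest in Fabp1. Mice were chosen here by 1 gene of each pair, so control replicate 1, far out in Slc22a5, was not addressed. Fabp1 with Angptl4 rested in part on the 2 mice farthest in Fabp1, since r was 0.30 without them and the Spearman test did not pass.

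**Figure D4:**
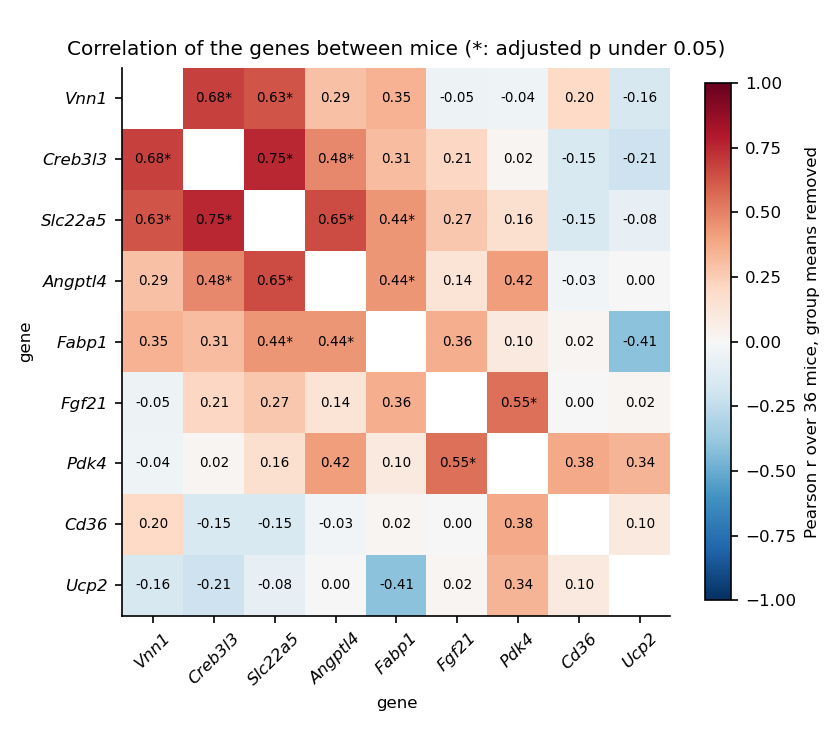
Pearson r between each pair of the 9 genes over 36 mice after the group means were taken off (colour and number); an asterisk marks an adjusted permutation p under 0.05. The asterisks join Slc22a5 to Vnn1, Creb3l3, Angptl4 and Fabp1, Creb3l3 to Vnn1 and Angptl4, Fabp1 to Angptl4, and Fgf21 to Pdk4 (r = 0.55). Vnn1 and Angptl4 have r = 0.29 without one.

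Beyond the 9 genes, the pattern over mice most like that of Slc22a5 was that of Hadhb, a subunit of the mitochondrial trifunctional protein (r = 0.88 within groups, 36 mice, 13033 other genes), followed by Slc27a2 and Lgals4 (both 0.81). For Vnn1 the nearest were Vwa8 (0.76) and Decr1 (0.75), an enzyme of fatty acid oxidation. For Angptl4 they were Lgals4 (0.82), Dnmbp and Arl4a (both 0.81). Fgf21 and Pdk4 had other neighbours: Dcaf12 (0.73), Otud3 (0.73) and Ptp4a2 (0.70) for Fgf21, and Abtb2 (0.70), Mpzl1 (0.68) and Exoc3l4 (0.65) for Pdk4. Hadhb and Decr1 belong to the list of oxidation enzymes, and none of the genes nearest to Fgf21 or Pdk4 does.

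The rest of the PPAR-alpha pathway was followed by lists. The receptor itself did not pass in any comparison: Ppara ranged from 12.8 to 13.95 in control and from 12.77 to 13.81 in quercetin livers, with a log2 fold change of 0.02 (adjusted p = 0.941, limma), and Rxra had 0.15 (adjusted p = 0.356). Of the 33 oxidation-enzyme targets, 6 rose with quercetin against control and none fell, with a median of 0.18. The largest were Cyp4a14 at 2.74 (adjusted p = 0.000241), Cyp4a31 at 1.57 and Cyp4a10 at 1.31, cytochromes of omega-oxidation, and the thioesterases Acot3 at 1.25 and Acot1 at 0.81. The probe named Cyp4a31 lists accessions of both Cyp4a31 and Cyp4a10 in the array files, so these near-identical genes are not ranked against each other. Vnn1 (0.69) lay below each of these 5 values, a difference that was not tested. None of the 17 tested targets of other kinds (lipid droplets, transport, coenzyme A), none of the 14 tested receptor and cofactor genes and none of the 25 tested relatives and partners was called between quercetin and control, at medians of 0.10, 0.06 and -0.03. In this comparison 2.22% of all genes were called, so an absence of calls does not set these lists apart. At an unadjusted p under 0.05, which 15.4% of all probes met, each list had genes that passed. Examples by limma were Retsat (0.32, p = 0.00429), Pparg (0.22, p = 0.0187) and Fabp5 (-0.53, p = 0.00169).

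Between baseline and control, where 21% of all genes were called, 4 of the 33 oxidation-enzyme targets fell and 1 rose, a share under that of all genes, with a median of -0.10 against 0.02: among them Decr1 fell by 0.43, Acot3 by 0.40 and Cpt1a by 0.37, and Acaa1b rose by 0.27. Of the 17 other targets, Slc27a1, Pank1 and Slc27a4 fell, by 0.31, 0.28 and 0.16. Among the cofactors, Lpin1 fell by 0.88, Ppargc1b by 0.62 and Ppargc1a by 0.43, with adjusted p of 0.039, 0.0072 and 0.0447. Among the 25 relatives and partners, 5 rose and 1 fell, all named above.

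**Figure D5:**
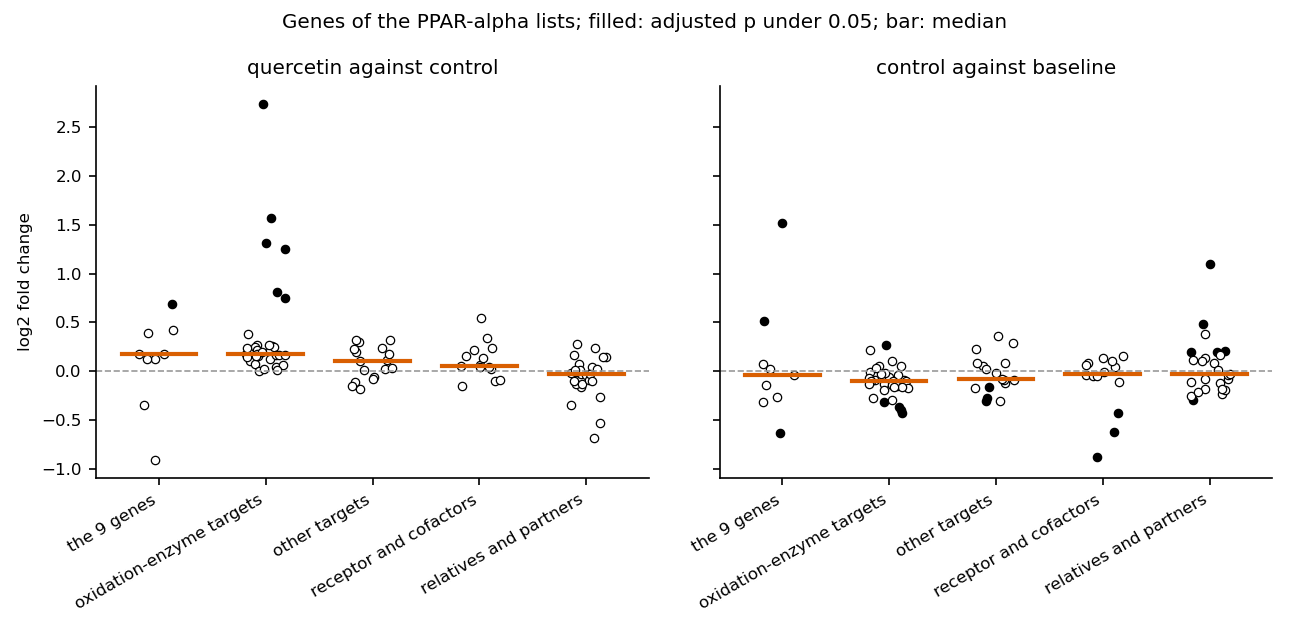
Log2 fold change (vertical axis) of each tested gene of 5 lists between quercetin and control (left) and between control and baseline (right); filled points have a limma adjusted p under 0.05, and the bar is the median of the list. Fgf21 (-0.91 on the left, 1.52 on the right) lies at opposite ends of the 9 genes in the 2 comparisons.

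Genes of the circadian clock differed between quercetin and control. Of 12 tested clock genes, 5 rose and 2 fell in this comparison, in which 2.22% of all genes were called; 2 fell between baseline and control, and none was called between quercetin and baseline. Among the called clock genes, the largest differences between quercetin and control were those of Ciart (1.03), Arntl (-1, adjusted p = 0.0034, limma), Dbp (0.92), Tef (0.63) and Clock (-0.46). Per2 had 0.55 and was not called (adjusted p = 0.152). Arntl, which encodes the core clock factor BMAL1, had a median of 8.11 at baseline, 8.98 in control and 7.81 in quercetin livers. With the value of Arntl as a covariate, the difference between quercetin and control became -0.28 for Fgf21 (adjusted p = 0.782), -0.03 for Pdk4 (adjusted p = 0.963) and 0.52 for Vnn1 (adjusted p = 0.286). In the same kind of fit, control exceeded baseline by 1.37 for Fgf21 (adjusted p = 0.000379) and 0.32 for Pdk4 (adjusted p = 0.0365). Only 1 of the 21781 probes was called between quercetin and control with this covariate. Arntl itself differed between quercetin and control, so it partly stands for the group. Clock state and diet cannot be told apart in such a fit, and the part of the clock was not tested. Baseline mice with replicate numbers 7 to 12 had lower Arntl than those numbered 1 to 6 (7.56 ± 0.41 against 8.78 ± 0.56, mean ± SD, n = 6 each). Between these subsets Fgf21 differed by -0.26, Pdk4 by -0.32, Fabp1 by 0.40 and Vnn1 by 0.08, values given without a test.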

How the data were processed

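Liver RNA of 36 mice was measured on two-colour Agilent whole-genome arrays. Per the labels, the scans were read with Feature Extraction 10.5.1.1. The authors deposited scanner intensities of both dyes for every spot, with no normalization between arrays, and a table of log2 values for 23256 spots (21781 probes). Checked against the scanner files, these log2 values equal the log2 ratio of median Cy5 over median Cy3 intensity, without background correction, plus a constant per spot and per array (largest residual 4.48e-06), and every array has a median of 8.9613. They were used here. Spots of a probe were averaged, groups of 12 were compared in pairs with limma 3.58.1 (R 4.3.3; lmFit, eBayes, two-sided) with Benjamini-Hochberg adjustment over 21781 probes, and the brightest probe stood for a gene. Probe positions were taken from the array files (build mm8); exons and UTRs were not analysed here. The number of arrays limits the precision.

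The genes, lists and tests were chosen with earlier results of these data known. Named were the 9 genes, at most 5 called genes of each list in the comparison of quercetin with control, Ppara, Rxra and Arntl, and the 3 genes most like each gene called; a few genes that these rules name are not reported here. On simulated data (21781 probes, quercetin against control), 86 of 100 probes changed by 0.5 and 99 of 100 changed by 1 were recovered, and 11 unchanged probes were called. The simulated noise was normal and independent between probes and arrays, without slide effects or outlying mice. These rates therefore need not hold for the real arrays or for genes that vary widely between mice. Same-numbered mice of different groups did not deviate together (median r -0.01 to 0.06), so the numbers do not pair them. Alternatives changed the values (normexp with an offset of 50, then loess, median centring, or loess and scaling; Feature Extraction signals; Cy5 alone; quantile normalization), the limit for dim probes, the kind of test, the samples fitted, and terms for slide, position, replicate number and Arntl. Leaving out each mouse in turn was added after the data had been seen. Figures were drawn with matplotlib 3.10.9 under Python 3.11.15.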

Additional observations from a re-analysis of the deposited data

How the results depend on the processing

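The number of the 9 genes called between quercetin and control (1) became 0 with median centring, with loess and scaling, with the replicate block and with Arntl as a covariate, 3 with all 36 arrays in one fit (adding Slc22a5 and Fgf21), 2 with array weights (adding Slc22a5) and 2 by any probe. Between control and baseline (3) it became 5 with loess, with loess and scaling and with array weights, and between quercetin and baseline (0) it became 1 with array weights and 1 with Arntl as a covariate. Leaving out 1 mouse at a time gave 1 to 2, 2 to 4 and 0 to 1 genes. Vnn1 kept its call in 13 of 17 alternatives and lost it with the replicate block (0.69, adjusted p = 0.0548, limma), median centring (0.60, 0.245), loess and scaling (1.32, 0.446) and Arntl (0.52, 0.286); the mouse numbers do not pair the samples. Fgf21 and Pdk4 kept theirs between control and baseline in 16 of 16, at 1.09 to 1.76 and 0.32 to 0.60, and Angptl4 in 9 of 16. In the same comparison Creb3l3 gained a call in 6 of 16 and Slc22a5 in 3 of 16. All probes called between quercetin and control (513) became 69 with median centring, 87 with loess and scaling, 185 with Cy5 alone, 210 with slide as a block, 804 with array weights and 1 with Arntl. Those between control and baseline (4645) became 2805 with Cy5 alone, and those between quercetin and baseline (2596) became 348, 572, 1201 and 4220 with median centring, loess and scaling, Cy5 alone and array weights. The causes were not tested.

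Of 441 fold changes of single genes under an alternative, 402 kept their direction and their side of the threshold, 11 lost the call, 14 gained it and 14 changed sign, none of them called. These were, between quercetin and control, Ucp2 at -0.01 (median centring); between control and baseline, Fabp1 at -0.00092 (loess, and no filter), -0.01 (loess and scaling) and -0.06 (Cy5 alone), Cd36 at 0.08 (median centring) and Ucp2 at -0.07 (Arntl); and between quercetin and baseline, Creb3l3 at -0.0029 (loess, and no filter), -0.0032 (Feature Extraction signals), -0.01 (quantile) and -0.05 (Cy5 alone), Slc22a5 at -0.01 (Cy5 alone) and Angptl4 at 0.50 (loess and scaling). Without 1 mouse, Ucp2 ranged from -0.0028 to 0.07 between control and baseline and Creb3l3 from -0.02 to 0.06 between quercetin and baseline. Signal over background was lowest for the Ucp2 probes outside the table (1.22 to 1.86 times).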
